A study of Mus musculus with 8 samples.

Results

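Glucocorticoids are adrenal steroid hormones that are released with the daily rhythm and under stress, and they reach the brain through the blood. They act through the glucocorticoid receptor, a transcription factor that waits in the cytoplasm in a complex with heat shock chaperones and moves to the nucleus when it binds the hormone. There it binds DNA and recruits coregulators, and it raises a set of target genes in neurons, astrocytes, oligodendrocytes and vascular cells. Some targets then restrain the pathway. Fkbp5, for example, is a co-chaperone that lowers the affinity of the receptor for the hormone.

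The 10 genes described here are the receptor gene Nr3c1 and 9 genes known as glucocorticoid-responsive, Fkbp5, Sgk1, Errfi1, Tsc22d3, Zbtb16, Cdkn1a, Plin4, Pdk4 and Sult1a1. They were chosen by gene name, with earlier results of these data known. All 10 were found among the 13996 genes with a deposited expression value. The study profiled cortexes of male C57BL/6 mice by RNA sequencing, with 4 mice on a conventional diet (Normal) and 4 mice on a diet with 60% fat by weight (high fat diet, HFD). The diets began at 8 weeks of age and lasted 8 weeks, so that all mice were 16 weeks old, and the mice on the high fat diet had gained weight and tolerated glucose poorly. Each mouse gave 1 library, and all mice were killed under ether anesthesia. Neither the hour of killing nor a corticosterone level is given in the sources at hand.

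Expression is given as FPKM, the fragments per kilobase of a transcript relative to all mapped fragments, which is corrected for length and depth and can be compared between genes. Values are rounded to 0.1 FPKM and hold no read counts, so the depth behind each value is unknown. A gene was called changed when its adjusted p was below 0.05 (limma on log2(FPKM + 0.1), two-sided, Benjamini-Hochberg over 13982 genes). Fold changes are on that log2 scale and understate the changes of genes near the added 0.1.

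The DNA element that the receptor binds as a dimer has 2 arms, written here as GNACA and TGTNC with 3 bases between them. This 13-base motif is its own reverse complement, so that 1 search covers both strands. RefSeq promoter windows, from 250 bases before to 50 bases after each annotated start, were at hand for 8 of the 10 genes and not for Nr3c1 and Zbtb16. Of these 8 genes, Sgk1 alone held the motif, in 1 of its windows. The 8 genes had 17 windows, and Sgk1 had several of them. Among all windows of this length 156 of 32851 held it, which is 0.475%. By gene, 145 of 27025 held it, which is 0.537%. The Sgk1 window, with the motif in capitals, is shown because it carries the match, and the Plin4 window because Plin4 had the largest fold change of the 10 genes and holds no match. Both show the 250 bases before the start, 5′ to 3′ on the strand of the gene, from RefSeq on GRCm38.p6. The Sgk1 stretch is chr10:21993640-21993889 on the plus strand, inside the annotated span of the gene and before an internal start. The Plin4 stretch is chr17:56109783-56110032 on the minus strand.
Sgk1: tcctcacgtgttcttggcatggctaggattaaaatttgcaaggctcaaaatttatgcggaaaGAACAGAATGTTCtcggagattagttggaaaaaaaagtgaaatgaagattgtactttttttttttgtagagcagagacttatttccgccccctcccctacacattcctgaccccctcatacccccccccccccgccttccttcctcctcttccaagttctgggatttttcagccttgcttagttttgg
Plin4: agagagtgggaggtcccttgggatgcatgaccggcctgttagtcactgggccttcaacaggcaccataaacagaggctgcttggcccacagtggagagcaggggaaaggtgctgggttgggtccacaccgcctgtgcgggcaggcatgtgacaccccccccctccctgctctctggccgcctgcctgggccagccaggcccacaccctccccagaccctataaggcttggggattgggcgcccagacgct

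The Sgk1 match is GAACAGAATGTTC and lies between -188 and -176 bases from that start. A match of letters does not show binding, and a window without a match says nothing of elements farther away, where many receptor sites are known to lie.

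The 10 genes differed in direction. Of the 10, 3 were higher in high fat diet fed mice (Nr3c1, Zbtb16 and Plin4), 2 were lower (Errfi1 and Cdkn1a), and 5 did not pass the test (Fkbp5, Sgk1, Tsc22d3, Pdk4 and Sult1a1). Among all genes tested, 17.7% were called higher and 15.3% lower, so 3 and 2 of 10 were near the background. With a change of over 50% also required, 2 of the 10 were higher (Zbtb16 and Plin4) and 0 were lower, against 4.23% and 2.90% of all genes. Because the genes were chosen with earlier results of these data known, these shares are not a test of the 10 genes. Without Normal 2, Normal 3, Normal 4, HFD 2 or HFD 4, the count of 5 called genes became 3. Calls over all genes fell too, from 2480 higher and 2146 lower. They were 1820 and 1475 without Normal 2, and 2476 and 2143 without Normal 4. The median log2 fold change of the 10 genes was 0.01, and that of all genes was 0.00311. The FPKM of 4 of the 10 genes (Nr3c1, Errfi1, Zbtb16 and Plin4) did not overlap between the diets, as was the case for 31.9% of all genes.

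By mean level over the 8 mice the genes ranged from Tsc22d3 at 50.9 FPKM to Plin4 at 1.81 FPKM. Sgk1 at 32.9 FPKM and Nr3c1 at 31.3 FPKM followed Tsc22d3, and these 2 neighbours differed by less than the spread of Sgk1 among mice. Zbtb16 was at 20.3 FPKM, Errfi1 at 11.3 FPKM and Fkbp5 at 9.19 FPKM. Sult1a1, Cdkn1a and Pdk4 were lower, at 6.60, 5.66 and 2.51 FPKM. Over the 8 mice, neighbours in this order overlapped except at 3 steps, from Tsc22d3 to Sgk1, from Fkbp5 to Sult1a1 and from Cdkn1a to Pdk4. For comparison, the median gene was at 9.78 FPKM.

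**Figure D1:**
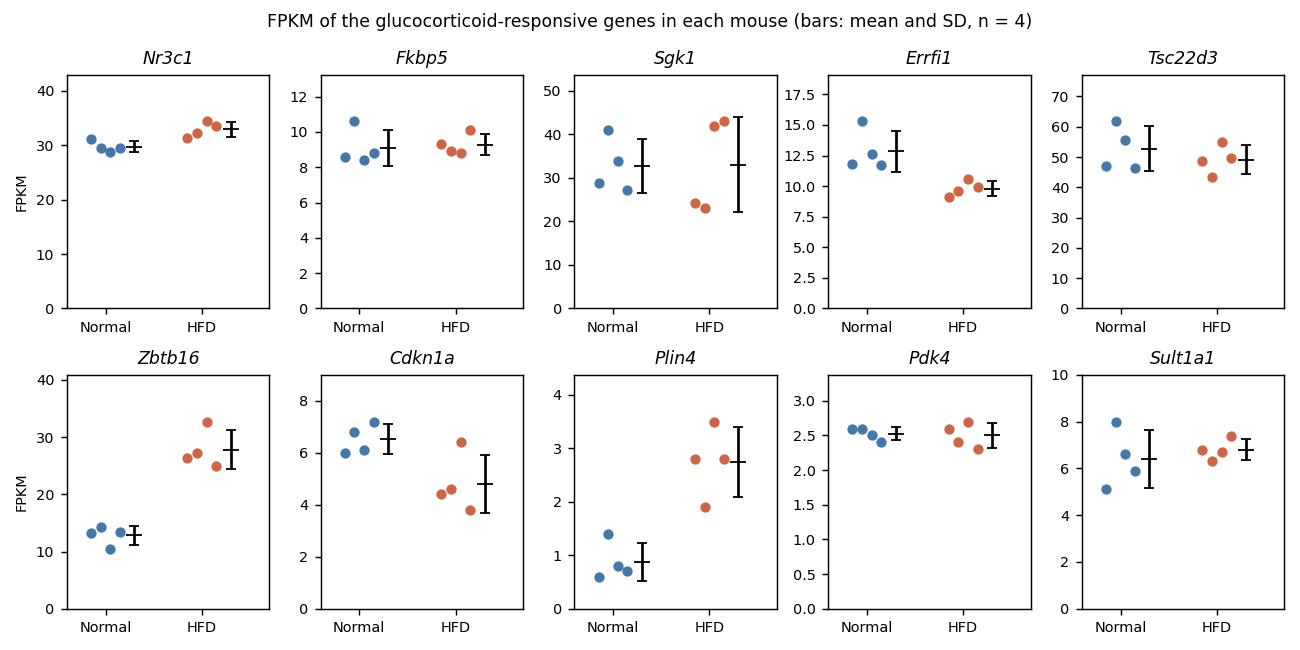
FPKM of each of the 10 genes (linear vertical axes from 0, scaled gene by gene) in the 4 Normal mice (blue) and the 4 HFD mice (orange), 1 point per mouse, with the mean and SD of each diet as bars. Zbtb16 and Plin4 separate the diets widely, Nr3c1 and Errfi1 separate them narrowly, and Sgk1 splits the HFD mice into a low pair at 23.1 and 24.2 FPKM and a high pair at 42.0 and 43.0 FPKM.

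Nr3c1 encodes the receptor itself. It was at 31.1, 29.5, 28.7 and 29.5 FPKM in Normal mice 1 to 4 and at 31.4, 32.2, 34.4 and 33.6 FPKM in HFD mice 1 to 4. Every HFD mouse was above every Normal mouse, although HFD 1 exceeded Normal 1 by little. The mean went from 29.7 ± 1.01 to 32.9 ± 1.35 FPKM (SD, n = 4), an increase of 10.8%. The log2 fold change was 0.15 ± 0.05 (SE, adjusted p = 0.0359, limma), and the exact two-sided permutation test gave 0.0286, the smallest p that 4 against 4 mice allow. The call was narrow. It was lost when Normal 2, Normal 3, Normal 4, HFD 2, HFD 3 or HFD 4 was left out, where the log2 fold change lay between 0.13 and 0.16 and the adjusted p between 0.0633 and 0.0856 (limma).

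Zbtb16 encodes a zinc finger transcription factor of the BTB family that is induced by glucocorticoids in many cells. The gene is on chromosome 9 of GRCm38, from 48654297 to 48836222 on the minus strand. It was at 13.2, 14.3, 10.5 and 13.5 FPKM in the Normal mice and at 26.3, 27.3, 32.7 and 24.9 FPKM in the HFD mice. The lowest HFD mouse was well above the highest Normal mouse. The mean rose from 12.9 ± 1.65 to 27.8 ± 3.41 FPKM (SD, n = 4), a ratio of 2.16. The log2 fold change was 1.11 ± 0.11 (SE, adjusted p = 0.000459, limma) and lay between 1.01 and 1.16 whichever mouse was removed. HFD 3, which had the highest Zbtb16, also had the highest Nr3c1 and the highest Plin4.

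Plin4 encodes perilipin 4, a protein that coats lipid droplets. It lies on chromosome 17 of GRCm38, from 56100591 to 56109803 on the minus strand. Its levels were 0.6, 1.4, 0.8 and 0.7 FPKM in the Normal mice and 2.8, 1.9, 3.5 and 2.8 FPKM in the HFD mice. The diets did not overlap, and Normal 2 was nearest to the HFD mice while HFD 2 was nearest to the Normal mice. The mean rose from 0.875 ± 0.359 to 2.75 ± 0.656 FPKM (SD, n = 4), a ratio of 3.14. The log2 fold change was 1.58 ± 0.26 (SE, 95% interval 1.00 to 2.16, adjusted p = 0.00248, limma). Plin4 is a low gene, at the 10.8th percentile of levels, and a rounding to 0.1 is a large share of a level of 0.6. With 1 added in place of 0.1, its log2 fold change was 1.00 and was still called. The neighbouring gene Hdgfl2 on the other strand shares 17 bases with Plin4 and was at 34.3 to 40.6 FPKM in Normal and 38.4 to 41.9 FPKM in HFD mice. Whether the counting used the strand was not found in the methods or labels.

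Errfi1 encodes a feedback inhibitor of the epidermal growth factor receptor. Its locus is on chromosome 4 of GRCm38, from 150853919 to 150868892 on the plus strand. It was at 11.8, 15.3, 12.6 and 11.7 FPKM in the Normal mice and at 9.1, 9.6, 10.6 and 9.9 FPKM in the HFD mice. All HFD mice were below all Normal mice. The mean went from 12.9 ± 1.68 to 9.80 ± 0.627 FPKM (SD, n = 4), a change of -23.7%. The log2 fold change was -0.38 ± 0.09 (SE, adjusted p = 0.0114, limma) and remained called whichever mouse was removed, between -0.42 and -0.29. So the direction of Errfi1 was opposite to that of Zbtb16 and Plin4.

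Cdkn1a encodes an inhibitor of cyclin-dependent kinases that halts the cell cycle. It lies on chromosome 17 of GRCm38, from 29090976 to 29100727 on the plus strand. Its levels were 6.0, 6.8, 6.1 and 7.2 FPKM in the Normal mice and 4.4, 4.6, 6.4 and 3.8 FPKM in the HFD mice. HFD 3 fell within the Normal range, and the other 3 HFD mice were below it. The mean went from 6.53 ± 0.574 to 4.80 ± 1.12 FPKM (SD, n = 4), and the log2 fold change was -0.46 ± 0.14 (SE, adjusted p = 0.0350, limma). The exact two-sided permutation test gave 0.0857. The call was lost when Normal 2, Normal 3, Normal 4, HFD 1, HFD 2 or HFD 4 was left out, and without HFD 3 the log2 fold change was -0.60 and was called.

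**Figure D2:**
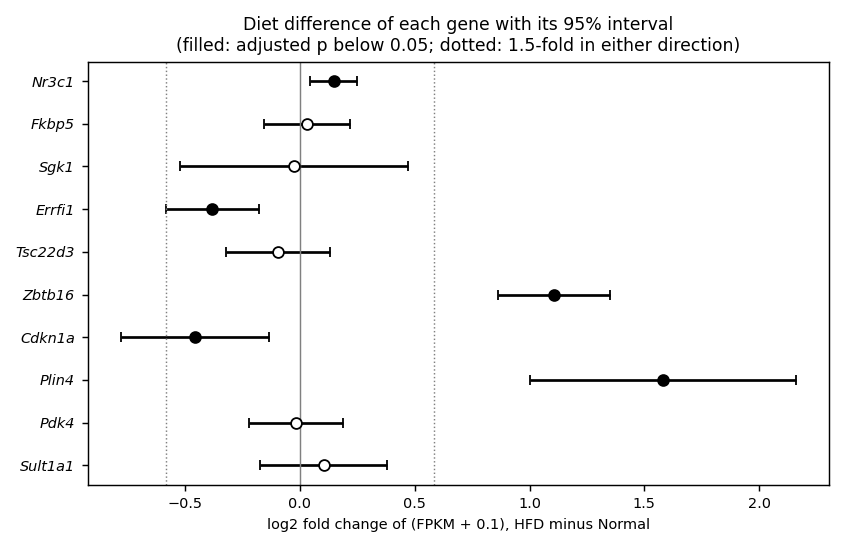
Difference between the diets for each gene as log2 fold change of FPKM + 0.1, HFD minus Normal, with its 95% interval from limma; filled points have an adjusted p below 0.05 and dotted lines mark 1.5-fold in either direction. Plin4 (1.58) and Zbtb16 (1.11) lie beyond the upper dotted line, Cdkn1a (-0.46) and Errfi1 (-0.38) lie below 0, and the interval of Sgk1 is among the wide ones, from -0.52 to 0.47.

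Fkbp5, the co-chaperone that forms the feedback on the receptor, showed no detectable difference. It lies on chromosome 17 of GRCm38, from 28399094 to 28517527 on the minus strand. It was at 8.6, 10.6, 8.4 and 8.8 FPKM in the Normal mice and at 9.3, 8.9, 8.8 and 10.1 FPKM in the HFD mice. The diets overlapped throughout, with the highest value in Normal 2. Its log2 fold change was 0.03 ± 0.08 (SE, adjusted p = 0.795, limma). The 95% interval of the fold ran from 0.898 to 1.16, so a rise or fall of over 20% lay outside it.

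Tsc22d3 encodes the leucine zipper protein GILZ, which opposes inflammatory transcription. The gene is on chromosome X of GRCm38, from 140539528 to 140600659 on the minus strand. It was at 46.9, 61.8, 55.7 and 46.5 FPKM in the Normal mice and at 48.6, 43.5, 54.9 and 49.6 FPKM in the HFD mice. The HFD mice lay mostly within the Normal range, and HFD 2 lay below it. Its log2 fold change was -0.10 ± 0.10 (SE, adjusted p = 0.494, limma), with a 95% interval of the fold from 0.799 to 1.10.

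Pdk4 encodes a kinase that inactivates pyruvate dehydrogenase and so spares glucose. Its locus is on chromosome 6 of GRCm38, from 5483351 to 5496309 on the minus strand. It was at 2.6, 2.6, 2.5 and 2.4 FPKM in the Normal mice and at 2.6, 2.4, 2.7 and 2.3 FPKM in the HFD mice. These values spanned only 0.4 FPKM in the 8 mice, a few steps of the rounding. The log2 fold change was -0.02 ± 0.09 (SE, adjusted p = 0.910, limma), and the 95% interval of the fold was 0.858 to 1.14. Pdk4 and Plin4, both genes of fat and energy metabolism at low levels in the cortex, thus had different values, with a 95% interval of the log2 fold change of -0.22 to 0.19 for Pdk4 and of 1.00 to 2.16 for Plin4.

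Sult1a1 encodes a sulfotransferase of phenols. The gene is on chromosome 7 of GRCm38, from 126672865 to 126676432 on the minus strand. It was at 5.1, 8.0, 6.6 and 5.9 FPKM in the Normal mice and at 6.8, 6.3, 6.7 and 7.4 FPKM in the HFD mice. The HFD mice lay inside the range of the Normal mice. On the log2 scale the fold change was 0.10 ± 0.12 (SE, adjusted p = 0.550, limma), with a 95% interval of the fold from 0.886 to 1.30.

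Sgk1 encodes the serum and glucocorticoid regulated kinase, which acts on ion channels and transporters and is also high in oligodendrocytes. It lies on chromosome 10 of GRCm38, from 21882184 to 21999903 on the plus strand. It was at 28.9, 40.9, 33.9 and 27.2 FPKM in the Normal mice and at 24.2, 23.1, 42.0 and 43.0 FPKM in the HFD mice. Of the HFD mice, 2 were above all Normal mice and 2 were below all Normal mice. The means were nearly equal, 32.7 ± 6.15 and 33.1 ± 10.9 FPKM (SD, n = 4), and the log2 fold change was -0.03 ± 0.22 (SE, adjusted p = 0.935, limma). The 95% interval of the fold, 0.695 to 1.38, was wide. Its residual SD within diets was 0.392 on the log2 scale and lay at the 94.8th percentile of all genes.

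The spread of Sgk1 was set beside 2 marker lists that also varied among the mice. The summed FPKM of 10 oligodendrocyte and myelin markers was 2889.5, 3536.7, 3180.2 and 2146 in the Normal mice and 1541, 1482.2, 2059.5 and 1496.2 in the HFD mice. Within each diet the mouse with the most of these markers, Normal 2 or HFD 3, was also high in Sgk1, whereas HFD 4 had high Sgk1 at a low sum. The summed FPKM of 8 choroid plexus markers was 903, 781.1, 968.9 and 491.7 in the Normal mice and 153.8, 97.3, 116.7 and 1150.5 in the HFD mice. HFD 4 was the highest of all mice in this list and in Sgk1, and HFD 3, with nearly the same Sgk1, was among the lowest in this list. The part of either cell type in the Sgk1 values was not tested.

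**Figure D3:**
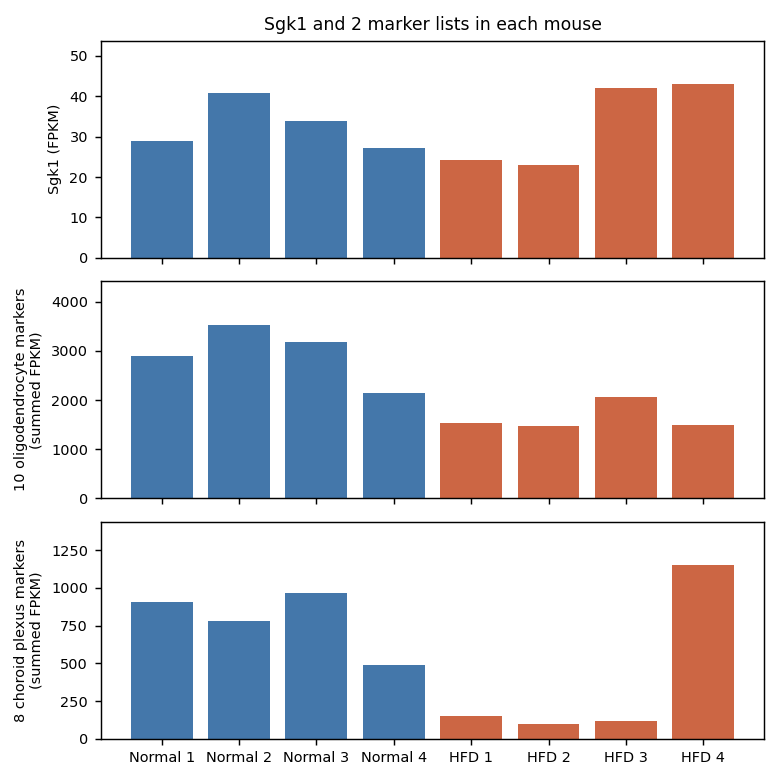
FPKM of Sgk1 (top), summed FPKM of 10 oligodendrocyte markers (middle) and summed FPKM of 8 choroid plexus markers (bottom) in each of the 8 mice, as bars from 0, blue for Normal and orange for HFD. Sgk1 is high in HFD 3 and HFD 4 at 42.0 and 43.0 FPKM, of which HFD 3 has the highest oligodendrocyte sum of its diet (2059.5) and HFD 4 the highest choroid plexus sum of all mice (1150.5).

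Whether Fkbp5, Sgk1, Tsc22d3 and Plin4 varied together from mouse to mouse was examined on the deviations of each mouse from the mean of its diet. Over the 8 mice, Tsc22d3 and Plin4 had a Pearson r of 0.94 (exact permutation p = 0.00694, adjusted over 6 pairs 0.0208) and a Spearman rho of 0.90 (exact permutation p = 0.00694, adjusted 0.0417). Normal 2 and HFD 3 were high in both genes and HFD 2 was low in both. Sgk1 and Tsc22d3 had an r of 0.77 (exact permutation p = 0.00521, adjusted 0.0208) and a rho of 0.76 (exact permutation p = 0.0139, adjusted 0.0417). Sgk1 and Plin4 had an r of 0.73 (exact permutation p = 0.0139, adjusted 0.0278) and a rho of 0.67 (exact permutation p = 0.0417, adjusted 0.0833). Normal 2, whose cerebellar and oligodendrocyte marker sums were also high, lay at the upper end of these pairs. HFD 3, also at the upper end, had the highest oligodendrocyte sum of its diet (2059.5 FPKM). HFD 2, at the lower end, had the lowest (1482.2 FPKM). HFD 4, high in Sgk1, had a low sum (1496.2 FPKM). The part of oligodendrocytes in these r was not tested.

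Fkbp5 was in none of the pairs that passed. Its r was 0.48 with Sgk1 (exact permutation p = 0.222, adjusted 0.267), 0.49 with Tsc22d3 (exact permutation p = 0.332, adjusted 0.332) and 0.66 with Plin4 (exact permutation p = 0.167, adjusted 0.250). The rho of Fkbp5 was 0.17 with Sgk1 (exact permutation p = 0.625, adjusted 0.703), 0.19 with Tsc22d3 (exact permutation p = 0.703, adjusted 0.703) and 0.51 with Plin4 (exact permutation p = 0.240, adjusted 0.359). Without the 2 mice farthest from the median of the first gene of a pair, these r changed sign, to -0.64, -0.49 and -0.15 (exact permutation p = 0.306, 0.361 and 0.861).

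Under the same step the r of the other 3 pairs kept their size but not their call. It was 0.95 for Tsc22d3 and Plin4 (exact permutation p = 0.125, adjusted 0.250), 0.85 for Sgk1 and Tsc22d3 (exact permutation p = 0.0208, adjusted 0.125) and 0.76 for Sgk1 and Plin4 (exact permutation p = 0.0417, adjusted 0.125). With 6 mice the smallest p possible was 0.0208 or 0.0278. Sgk1 and Tsc22d3 reached the smallest p and still had an adjusted exact permutation p of 0.125. The lost calls therefore cannot show whether these pairs depend on the 2 mice. When single mice were removed, the r of Tsc22d3 and Plin4 lay between 0.89 and 0.98, and its adjusted exact permutation p was above the threshold in 7 of 8 cases, HFD 4 being the exception.

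**Figure D4:**
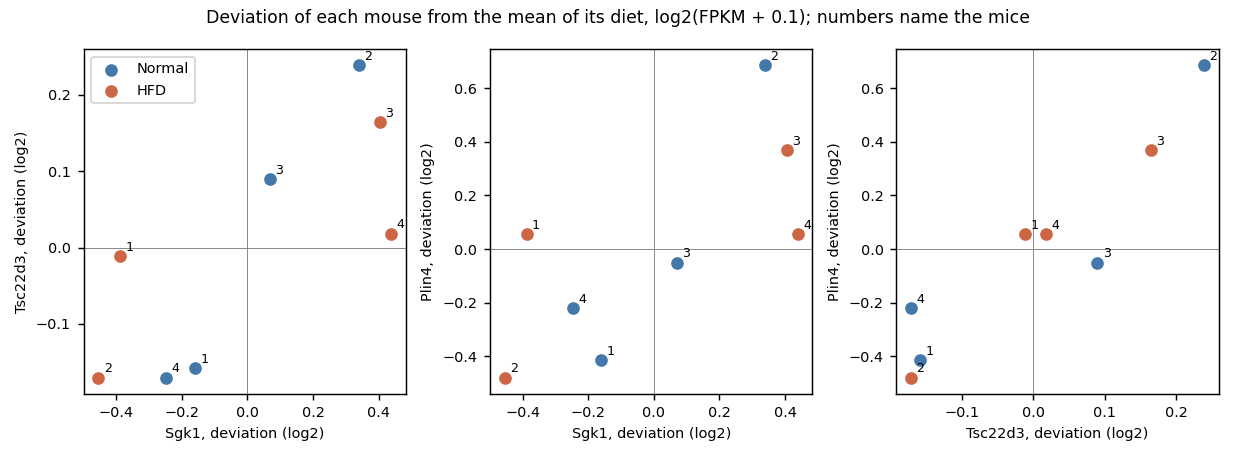
Deviation of each mouse from the mean of its diet in log2(FPKM + 0.1) for Sgk1 against Tsc22d3, Sgk1 against Plin4 and Tsc22d3 against Plin4, 1 point per mouse with its number, blue for Normal and orange for HFD. Normal 2 and HFD 3 lie at the upper right of each panel and HFD 2 at the lower left, and r is 0.77, 0.73 and 0.94 from left to right.

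Other genes known to be induced by glucocorticoids were also examined, with 20 of the 26 listed genes tested. Of these 20, 2 were higher, 3 were lower and 15 did not pass, with a median log2 fold change of -0.03. Again the shares were near the background of 17.7% and 15.3%. The genes Angptl4, Cebpd, Hif3a, Lcn2, Map3k6 and Zfp36 had no value here. Without HFD 1, 3 genes were called in place of 5. Calls over all genes then went from 2480 higher and 2146 lower to 1919 and 1625.

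Among the lower genes, Dusp1, a phosphatase that inactivates MAP kinases, was at 12.3 to 17.9 FPKM in Normal and 8.5 to 10.6 FPKM in HFD mice, with a log2 fold change of -0.63 ± 0.11 (SE, adjusted p = 0.00348, limma). Ddit4, an inhibitor of mTOR signalling, was at 16.3 to 21.5 and 11.6 to 15.1 FPKM, with a log2 fold change of -0.51 ± 0.11 (SE, adjusted p = 0.00627, limma). The diets did not overlap for either gene. Gpd1, a glycerol phosphate dehydrogenase that is high in oligodendrocytes, was at 31.3 to 39.1 and 25.2 to 32.5 FPKM, and its log2 fold change was -0.32 ± 0.09 (SE, adjusted p = 0.0248, limma). Dusp1 and Ddit4 also answer to neuronal activity and stress, and the summed FPKM of 8 immediate early genes was 200.2 to 313.5 in Normal and 150.5 to 233.4 in HFD mice. Of these 8 genes 3 were called lower and 0 higher, against 15.3% and 17.7% of all genes tested. The genes not called went both ways. Their log2 fold changes were 0.41 for Npas4, 0.35 for Fosb, 0.20 for Egr1, -0.01 for Nr4a1 and -0.18 for Junb. The median of the list was -0.09. The part of neuronal activity in the values of Dusp1 and Ddit4 was not tested.

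The higher genes were Mertk and Gjb6, both high in astrocytes. Mertk, a receptor for phagocytosis, was at 8.4 to 10.3 FPKM in Normal and 12.4 to 12.6 FPKM in HFD mice, with a log2 fold change of 0.37 ± 0.07 (SE, adjusted p = 0.00424, limma). Gjb6, a gap junction protein, was at 21.8 to 26.8 and 27.5 to 30.9 FPKM, with a log2 fold change of 0.28 ± 0.08 (SE, adjusted p = 0.0204, limma). Of 8 astrocyte markers in all, 2 were higher and 3 were lower, against 17.7% and 15.3% of all genes tested.

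Well known targets were among the genes that did not pass. Per1, a clock gene with direct receptor binding, was at 14.5 ± 1.60 in Normal and 16.5 ± 1.11 FPKM in HFD mice (SD, n = 4, log2 fold change 0.18, adjusted p = 0.118, limma). Klf9, a transcription factor, was at 56.3 ± 3.98 and 55.7 ± 4.25 FPKM (log2 fold change -0.02, adjusted p = 0.871, limma). The metallothionein genes had log2 fold changes of -0.14 for Mt1 (adjusted p = 0.306, limma) and 0.10 for Mt2 (adjusted p = 0.431, limma). Mt1 and Mt2 are similar members of a family, and whether reads were shared between them was not examined. The promoter motif was found in 2 of the 22 listed genes with a window, Mt1 and Map3k6. Among all genes with a window 145 of 27025 held it, which is 0.537%.

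Upstream of these targets, chaperone genes were called lower and coregulator genes were called higher. Of 13 enzymes, receptors and chaperones that handle the hormone or fold the receptor, 0 were higher, 8 were lower and 5 did not pass, with a median log2 fold change of -0.29. Of 10 coregulators, 7 were higher, 0 were lower and 3 did not pass, with a median of 0.22. The background was 15.3% lower and 17.7% higher over all genes. Because these lists were chosen with earlier results of these data known, this comparison is not a test of them. Many of these genes serve other chaperone clients and other transcription factors as well as the receptor. With 4 stress axis genes included, 8 genes were called higher and 8 lower. With the cerebellum marker level added to the model, 3 were called higher and 0 lower. Calls over all 13982 genes then fell from 2480 higher and 2146 lower to 430 and 361. The calls were 4 higher and 2 lower with the choroid plexus level (443 and 313 over all genes). They were 5 higher and 3 lower with the endothelium level (1409 and 1035 over all genes). With the oligodendrocyte level they were 0 in either direction (2 and 4 over all genes).

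Hsp90aa1 encodes a chaperone that holds the receptor ready for the hormone. It was at 375.8 to 411 FPKM in Normal and 275.6 to 315 FPKM in HFD mice. The log2 fold change of Hsp90aa1 was -0.40 ± 0.06 (SE, adjusted p = 0.00152, limma). Hsp90ab1, in the same list and at a higher level, was at 492 to 523 and 459.2 to 484.2 FPKM. It did not pass, with a log2 fold change of -0.10 ± 0.05 (SE, adjusted p = 0.125, limma). The co-chaperone Ptges3 was at 63.4 to 67.4 and 47.8 to 54.9 FPKM, with a log2 fold change of -0.36 ± 0.05 (SE, adjusted p = 0.00141, limma). None of these genes overlapped between the diets. Fkbp4, the co-chaperone that competes with Fkbp5 for the complex and favours hormone binding, was at 53.4 to 71.4 and 45.6 to 51.7 FPKM, with a log2 fold change of -0.34 ± 0.10 (SE, adjusted p = 0.0280, limma). Hsd11b1, the enzyme that regenerates active corticosterone inside cells, was at 13.4 to 18.4 and 11.5 to 12.4 FPKM, with a log2 fold change of -0.34 ± 0.10 (SE, adjusted p = 0.0251, limma). Nr3c2, the mineralocorticoid receptor that also binds corticosterone, was at 17.5 ± 1.95 and 15.4 ± 1.89 FPKM (SD, n = 4, log2 fold change -0.19, adjusted p = 0.173, limma).

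Among the coregulators, the histone acetyltransferase Crebbp was at 12 to 14.3 FPKM in Normal and 18.9 to 21.4 FPKM in HFD mice, with a log2 fold change of 0.62 ± 0.07 (SE, adjusted p = 0.000729, limma). The diets did not overlap. The related acetyltransferase Ep300 rose by 0.47 ± 0.06 on the log2 scale (SE, adjusted p = 0.00119, limma) and the coactivator Ncoa2 by 0.37 ± 0.05 (SE, adjusted p = 0.00140, limma). Of 4 genes of the stress axis tested, Crhbp, which binds and buffers corticotropin-releasing hormone, was higher, at 6.5 to 8.9 and 9.2 to 10.7 FPKM, with a log2 fold change of 0.35 ± 0.11 (SE, adjusted p = 0.0351, limma). The other 3 did not pass.

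**Figure D5:**
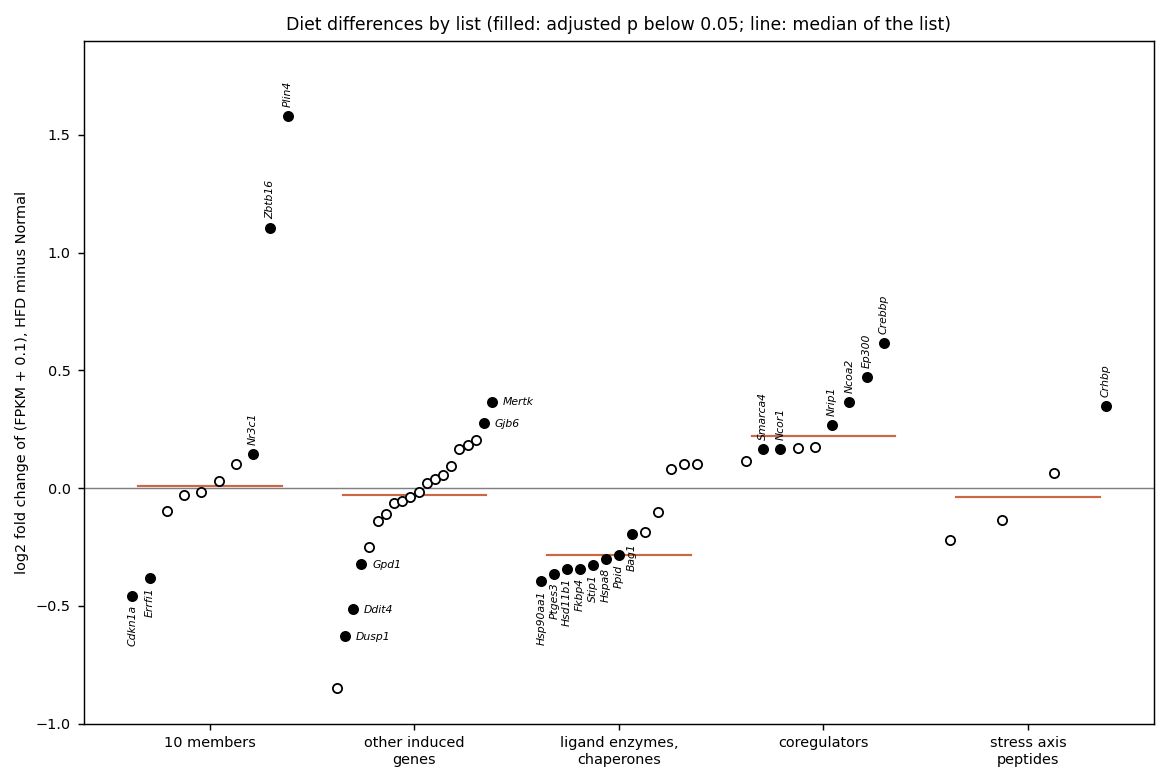
Difference between the diets (log2 fold change of FPKM + 0.1, HFD minus Normal) of each gene in 5 lists, with genes ordered within a list, filled where the adjusted p from limma is below 0.05, and the median of each list as a line. The chaperone list has 8 filled points, all below 0, the coregulator list, with 1 gene not drawn, has 6 filled points, all above 0, and the 10 glucocorticoid-responsive genes spread to both sides around a median of 0.01.

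The mice also differed in markers of other cells and regions. All 10 cortical projection neuron markers were found, as the label cortex requires, with sums of 493.2 to 755 FPKM in Normal and 742 to 995.2 FPKM in HFD mice, 6 of them higher. In HFD mice 9 of 9 striatum markers were lower (sums 238.8 to 440.1 against 79.4 to 88.9 FPKM), as were 10 of 10 oligodendrocyte markers, 5 of 8 cerebellum markers (63.5 to 457.8 against 45.9 to 52.5 FPKM), 5 of 5 ependyma markers and 5 of 5 blood markers. The cerebellum sums include Gabra6, which was not tested and so is not in the count. Among all genes tested, 17.7% were called higher and 15.3% lower. In such bulk tissue fewer cells of a type and less RNA per cell cannot be told apart. Of 10 endothelium markers 1 was higher and 3 were lower (sums 117.1 to 132.3 against 110.5 to 123.3 FPKM). Of 8 clock genes of the PER phase 7 were higher (153.1 to 177.9 against 237.8 to 248.3 FPKM), and corticosterone also follows the clock. The sums of the striatum, cerebellum, thalamus, oligodendrocyte, oligodendrocyte precursor, ependyma and PER phase lists did not overlap between the diets, so diet and these lists cannot be told apart.

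Zbtb16 and Plin4 stayed called when the cerebellum, endothelium or choroid plexus marker level was added to the model, with log2 fold changes of 0.96 or more and 1.64 or more, and also in the 5 mice left without Normal 2, Normal 3 and HFD 4, those highest in cerebellum or choroid plexus markers. Since the cerebellum sums did not overlap between the diets, that fit does not separate them. The choroid plexus term and the set of 5 mice were chosen after seeing the data. With the oligodendrocyte level added, their log2 fold changes were 1.29 and 2.49 but the adjusted p of each was 0.118 (limma), and of all 13982 genes 2 were called higher and 4 lower. Errfi1 and Nr3c1 were called in none of these fits, with log2 fold changes of -0.35 to -0.05 for Errfi1 and 0.08 to 0.20 for Nr3c1 with a marker level added. Cdkn1a was called only with the choroid plexus level added (adjusted p = 0.0450, limma).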

How the data were processed

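RNA of 8 mouse cortexes, 4 per diet and 1 library per mouse, was depleted of rRNA and sequenced as stranded paired-end libraries. The authors used Trimmomatic for trimming, STAR for alignment to mm10 and Cuffnorm with GENCODE M17 for the deposited FPKM values. Tool versions were not given in the sources used here. Per the paper's methods, genes needed an average of at least 1 FPKM and no 0, and 14 of the 13996 deposited genes lay outside that filter and were not tested. The FPKM values hold no counts, so depth is unknown and no counting interval was given.

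The deposited FPKM values were taken as log2(FPKM + 0.1) and compared by limma 3.58.1 (R 4.3.3, variance trend) over 13982 genes, where the study used a t test. A gene was called at an adjusted p below 0.05, and a change of over 50% was a further condition. Permutation tests ran over all 70 assignments of mice or, within diets, all 576 arrangements. Python 3.11.15, pandas 2.3.3, numpy 2.4.6 and scipy 1.17.1 made tables, and matplotlib 3.10.9 made figures. Positions came from GENCODE M21, a later release than M17, and promoter windows from RefSeq on GRCm38.p6. The procedure was tested on simulated data.

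The genes, the pathway lists and the marker lists were chosen with earlier results of these data known. From the pathway lists the text names the called genes of largest change (at most 4 per list, and 8 for the induced genes) and in any case Nr3c2, Hsd11b1, Per1, Dusp1, Klf9, Mt1 and Mt2. Hsp90ab1 is named beside Hsp90aa1. The result of 1 gene is not reported here. Other constants, filters, scalings, marker covariates, a replicate block and each mouse left out were tried. The second quantification with Salmon was not used here.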

Additional observations from a re-analysis of the deposited data

Results flagged for a closer look

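Among 58 sets of 4 mice (a gene in a diet), 2 had a mouse far from the other 3, with a gap to the nearest of them above the 95% limit of Dixon's ratio, which chance passes in about 5% of sets. Mertk was at 8.4 FPKM in Normal 3 and at 10 to 10.3 FPKM in the other Normal mice. Ncoa2 was at 21.6 FPKM in Normal 4 and at 19.4 to 19.6 FPKM in the other Normal mice. Neither mouse reached the range of the HFD mice.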

How the results depend on the processing

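The labels do not say whether the replicate numbers pair the mice. Deviations of same-numbered mice correlated at -0.04, -0.03, -0.11 and -0.07, which cannot decide it with 4 mice per diet. With the replicate block 3 of the 10 genes were called in place of 5. The count of 5 became 2, 2, 0 and 3 with cerebellum, endothelium, oligodendrocyte and choroid plexus markers as covariates. It was 2 in the 5 mice left without Normal 2, Normal 3 and HFD 4, and 3 to 5 with single mice left out. Calls over all 13982 genes also fell, from 2480 higher and 2146 lower. In the same order of covariates they were 430 and 361, 1409 and 1035, 2 and 4, and 443 and 313. They were 1840 and 1550 with the block and 1422 and 1079 in the 5 mice. With single mice left out they fell too, though by little without Normal 4 (2476 and 2143). The count of 2 with a change of over 50% became 1 at a mean FPKM of at least 5, where Plin4 was not tested, 0 with the oligodendrocyte covariate, 4 at a minimum change of 20%, and 2 to 3 with single mice left out. The 5 calls among other induced genes became 2, 0 and 1 with the cerebellum, oligodendrocyte and choroid plexus covariates and 3 to 5 with single mice left out. The 16 calls among chaperone, coregulator and stress axis genes became 3, 8, 0 and 6 with the 4 covariates and 8 in the 5 mice, and lay between 11 and 16 with single mice left out.

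Log2 fold changes that changed sign belonged to genes that were not called. Sgk1 went to 0.29, 0.76 and 0.37 with the cerebellum, oligodendrocyte and choroid plexus covariates and 0.0305 in the 5 mice, Tsc22d3 to 0.16 and 0.35 with the first 2 covariates and 0.0627 in the 5 mice, and Pdk4 to 0.0840 and 0.18 with the endothelium and oligodendrocyte covariates and 0.0360 in the 5 mice. With single mice left out, Fkbp5 lay between -0.00999 and 0.11, Sgk1 between -0.17 and 0.12, and Pdk4 between -0.0523 and 0.0218. The cause was not tested.

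Without the 2 farthest mice, r was -0.64, -0.49 and -0.15 for Fkbp5 with Sgk1, Tsc22d3 and Plin4, 0.85 for Sgk1 and Tsc22d3, 0.76 for Sgk1 and Plin4, and 0.95 for Tsc22d3 and Plin4. With single mice left out, r lay between -0.17 and 0.72 for Fkbp5 and Tsc22d3, 0.70 and 0.88 for Sgk1 and Tsc22d3, 0.61 and 0.86 for Sgk1 and Plin4, and 0.89 and 0.98 for Tsc22d3 and Plin4, and the 3 called pairs lost their call in 7, 8 and 7 of 8 cases, with fewer mice and so fewer arrangements. Nr3c1 was not called without the variance trend (adjusted p = 0.0609, limma) or with the replicate block (adjusted p = 0.103, limma), and Cdkn1a not with the block (adjusted p = 0.0713, limma). The covariate of choroid plexus and the set of 5 mice were chosen after seeing the data.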
